A study of Mus musculus with 30 samples.

Results

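Gene expression in the wild-type (WT) mouse uterus was compared 24 h and 2 h after a single injection of 17β-estradiol (E2), the main ovarian estrogen. The comparison uses the 3 arrays labelled as WT uterus with E2 for 24 h and the 3 labelled as WT uterus with E2 for 2 h, which are 6 of the 30 arrays of the study. All mice were prepubertal females, 21 days old, whose ovaries secrete little estrogen of their own. E2 was given intraperitoneally as 250 ng in 100 ul of saline, once, in both groups.

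A further 3 WT uteri had received 100 ul of saline and were taken at 24 h only, so no vehicle sample matches the 2 h time. The other groups set beside the WT change are uteri of the knockout (KO) genotype Ex3aERKO, labelled as lacking estrogen receptor alpha, at 24 h and 2 h of the same E2 dose, and WT uteri given insulin-like growth factor 1 (IGF1). IGF1 was injected as 50 ug in PBS, 3 times by 24 h and once by 2 h. Every group had 3 arrays, a number that limits the precision. Nothing in the labels says that replicates come from different mice. The tests read the spread between the 3 samples within a group, pooled over all 10 groups, and this spread may be technical. Each sample is a whole uterus of several tissues, where fewer cells of a type and less RNA per cell cannot be told apart.

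Estradiol enters cells and binds estrogen receptor alpha, a transcription factor encoded by Esr1 that sits on DNA with coactivators and corepressors. In the rodent uterus the response is classically described as an early phase of signalling genes, water uptake and increased blood flow, followed by a late phase of DNA synthesis, cell division and secretion in the epithelium. The inner epithelium, the stroma below it and the outer smooth muscle all carry the receptor. Growth factors made in the stroma, IGF1 among them, are known to pass part of the signal to the epithelium.

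Levels are the authors' log2 signals, on which a difference of 1 is a 2-fold difference. Differences are given as 24 h minus 2 h ± standard error (SE) of the limma fit, with 3 arrays at each time. A gene was called higher or lower at a limma p-value adjusted by the Benjamini-Hochberg method under 0.05. For a gene whose mean in the dimmer group did not exceed the floor, the 95th percentile of 1224 olfactory receptor genes on the same arrays, the fold is given as "at least". The mean correlation of each of the 6 E2 arrays with those of its own group lay between 0.9935 and 0.9944. One array stood apart: WT vehicle replicate 1 had the lowest array weight of all, 0.166, and a signal of 10.16 for Xist, against 17.25 to 18.12 on the other WT arrays. KO E2 24 h replicate 2 had the next lowest weight, 0.259. Neither enters a 24 h or 2 h mean of E2 in WT, but both enter the pooled spread, and without the pair 9371 genes were called between the times in place of 8265. Counts against vehicle, and counts of genes whose time change differed between WT and KO, are given with and without the array concerned.

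The promoters of 7 genes on which the results turn are shown with motifs of transcription factor binding found in them. Each is the 150 bases before the transcription start in RefSeq on GRCm38.p6, written 5′ to 3′ on the strand of the gene, with the motif named for that gene in capitals; matches to other motifs are left in lower case. Dusp5 and Plk2 were high at 2 h, and the other 5 were high at 24 h. Dusp5, at chr19:53528995-53529144 on the + strand, holds serum response elements, the binding sequence of Srf. Plk2, at chr13:110394894-110395043 on the + strand, holds a cyclic AMP response element, TGACGTCA. Ccnb2, at chr9:70421555-70421704 on the - strand, holds 3 CCAAT boxes, CCAAT or ATTGG, which bind the factor NF-Y. Ube2c, at chr2:164769779-164769928 on the + strand, holds CCAAT boxes and a cell cycle homology region, TTTGAA or TTCAAA. Mcm6, at chr1:128359706-128359855 on the - strand, holds E2F sites, searched as TTTCCCGC, TTTGGCGC, TTTCGCGC and their reverse complements. The first pair of them overlaps, and the window also holds 2 CCAAT boxes. Hmgcs1, at chr13:119690201-119690350 on the + strand, holds a CCAAT box. Sprr1a, at chr3:92485882-92486031 on the - strand, holds 2 AP-1 sites, TGACTCA or TGAGTCA, the sequence bound by Fos and Jun proteins.
Dusp5: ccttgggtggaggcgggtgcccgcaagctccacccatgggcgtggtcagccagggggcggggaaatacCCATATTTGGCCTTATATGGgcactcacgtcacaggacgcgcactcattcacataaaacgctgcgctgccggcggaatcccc
Plk2: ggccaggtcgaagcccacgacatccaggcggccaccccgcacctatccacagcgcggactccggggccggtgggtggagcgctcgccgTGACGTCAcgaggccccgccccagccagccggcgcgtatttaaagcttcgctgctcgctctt
Ccnb2: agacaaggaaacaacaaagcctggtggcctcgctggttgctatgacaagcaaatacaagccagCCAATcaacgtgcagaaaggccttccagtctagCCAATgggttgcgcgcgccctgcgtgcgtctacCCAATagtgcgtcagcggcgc
Ube2c: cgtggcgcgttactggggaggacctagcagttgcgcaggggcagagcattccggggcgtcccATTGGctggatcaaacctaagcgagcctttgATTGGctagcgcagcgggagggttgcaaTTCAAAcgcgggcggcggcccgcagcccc
Mcm6: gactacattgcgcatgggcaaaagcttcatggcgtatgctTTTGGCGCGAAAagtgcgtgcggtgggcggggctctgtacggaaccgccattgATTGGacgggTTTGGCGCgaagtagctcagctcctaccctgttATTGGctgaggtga
Hmgcs1: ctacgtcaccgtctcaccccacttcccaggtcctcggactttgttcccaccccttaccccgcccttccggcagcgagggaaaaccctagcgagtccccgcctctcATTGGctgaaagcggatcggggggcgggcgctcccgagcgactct
Sprr1a: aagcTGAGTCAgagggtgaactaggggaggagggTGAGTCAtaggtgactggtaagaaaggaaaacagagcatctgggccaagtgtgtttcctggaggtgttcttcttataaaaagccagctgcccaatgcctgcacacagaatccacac

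Both strands of the 250 bases before the start were searched in the 17970 tested genes with a RefSeq promoter. A gene counted where any of its promoters held the motif. CCAAT boxes were present in 19 of 21 mitosis genes called higher at 24 h and in 14 of 14 cholesterol synthesis genes called higher, against 38.5% of all genes. E2F sites were present in 7 of 23 DNA replication genes called higher, against 2.25% of all genes. The cell cycle homology region was in 8 of the 21 mitosis genes, against 16.5% of all genes. AP-1 sites were in 7 of 14 late epithelial genes called higher, 5 of them members of the Sprr cluster, against 4.94% of all genes. A cyclic AMP response element was in 3 of 7 genes of mitogen-activated kinase feedback called lower, against 2.16% of all genes. Serum response elements were in 1 of the same 7, Dusp5, and in 1 of 16 immediate early genes called lower, against 1.52% of all genes. These are matches of letters in a fixed window, given as a description. The estrogen response element, a palindrome to which the receptor binds directly, was in 10 genes in all and in none of the called members of the 8 lists searched. The letters searched as a sterol response element were in 13 genes in all and in none of the 14 cholesterol synthesis genes. Variants of those letters were not searched, so this does not show that these promoters, Hmgcs1 included, lack a sterol element. For every motif, no match says only that the exact letters searched are not in this window.

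Between 24 h and 2 h of E2, 8265 of 30142 tested genes were called, 5116 higher at 24 h (17.0% of those tested) and 3149 lower (10.4%). The list counts below are to be read against these shares. Of these, 2201 were at least 2-fold higher and 1085 at least 2-fold lower. Calls were 61.9% in the higher direction as deposited and 51.8% after quantile normalization. The 3 arrays of each time did not overlap for 14412 genes, 47.8% of those tested. Lack of overlap in a gene named below is to be read against that share. The median difference over all genes was -0.01. In all, 12630 genes lay at the floor at both times, some of them among the genes counted above. Against vehicle, 16.8% of all genes were called above and 13.3% below at 24 h. At 2 h these shares were 9.84% and 9.18%. List counts against vehicle are to be read beside them.

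**Figure D1:**
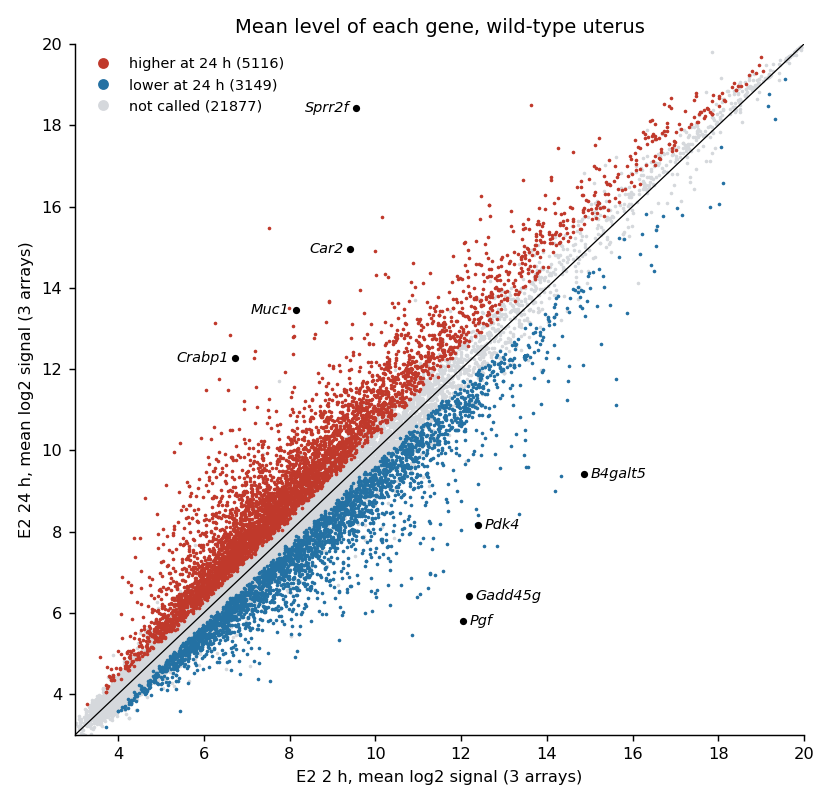
Mean log2 signal of each of 30142 genes in E2 24 h uteri (vertical axis) against E2 2 h uteri (horizontal axis), 3 arrays each, with genes called higher at 24 h in red, lower in blue and not called in grey; the line marks equal levels. Sprr2f and Muc1 lie far above the line, with means of 18.43 and 13.46 at 24 h, and Pgf and Gadd45g lie far below it.

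The largest falls were in genes of signalling and of the early estrogen response. Pgf, a growth factor of the vascular endothelial family, had levels of 5.997, 5.80 and 5.63 in E2 24 h uteri, against 12.22, 11.78 and 12.17 in E2 2 h uteri. The difference was -6.25 ± 0.16 (76-fold lower, adjusted p = 1.13e-18), and its vehicle levels of 6.11, 5.86 and 5.53 spanned those at 24 h. Gadd45g, a stress and growth arrest gene, stood at 6.19, 6.46 and 6.62 in E2 24 h uteri, against 12.23, 11.93 and 12.41 in E2 2 h uteri (-5.76 ± 0.21, 54.4-fold lower). In both genes every 2 h array lay more than 5 log2 units above every 24 h array.

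B4galt5, a galactosyltransferase of glycolipid synthesis, was at 9.59, 9.49 and 9.21 in E2 24 h uteri, against 15.17, 14.65 and 14.78 in E2 2 h uteri (-5.44 ± 0.35). Adamts4, a protease that cuts aggrecan, was at 5.50, 5.37 and 5.46 in E2 24 h uteri, against 11.65, 9.44 and 11.51 in E2 2 h uteri, at least 34.4-fold lower (-5.42 ± 0.36). Replicate 2 was the lowest 2 h array for Adamts4, and the times still did not overlap. Plk2, a kinase of stress and centriole duplication whose promoter is shown above, was at 9.50, 8.97 and 9.63 in E2 24 h uteri, against 14.49, 13.96 and 14.53 in E2 2 h uteri (-4.96 ± 0.25).

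Tiparp, an ADP-ribosyltransferase induced by the dioxin receptor, fell by 5.19 ± 0.19, with vehicle levels of 8.71, 9.55 and 9.54 beside 8.82, 9.20 and 8.98 in E2 24 h uteri. Dennd2a, a regulator of Rab GTPases, fell by 5.19 ± 0.16. Ccn1, a secreted matrix protein, fell by 4.92 ± 0.40, Rasd1, a small GTPase, fell by 4.60 ± 0.51 and Ripor2, a RhoA inhibitor, fell by 4.58 ± 0.17. Pparg, a nuclear receptor of fat metabolism, fell by 4.57 ± 0.65, Irak3, a brake on Toll-like receptor signals, fell by 4.46 ± 0.26 and Pdk4, a kinase that shuts off pyruvate oxidation, fell by 4.23 ± 0.70.

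The largest rises were in epithelial products, histones and cell division genes. Sprr2f, a proline-rich protein of barrier epithelium, had levels of 17.56, 18.82 and 18.89 in E2 24 h uteri, against 10.26, 9.15 and 9.22 in E2 2 h uteri (8.88 ± 1.55, 471-fold higher, adjusted p = 9.31e-05). Its vehicle levels were 8.45, 6.70 and 9.14. Sprr2b was at 14.28, 16.82 and 15.33 in E2 24 h uteri, against 7.77, 7.20 and 7.59 in E2 2 h uteri (7.96 ± 1.24), and Sprr1a, whose AP-1 sites are shown above, at 12.61, 13.61 and 13.16 in E2 24 h uteri, against 7.10, 5.43 and 6.23 in E2 2 h uteri (6.87 ± 1.12). Spread between arrays was wide in this family, from 14.28 to 16.82 among the 24 h arrays of Sprr2b, and smaller than the gap between times. The Sprr2 genes resemble each other closely, and which member gives a signal is uncertain.

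Clca1, a secreted protein of mucous epithelia, was at 16.10, 15.59 and 15.56 in E2 24 h uteri, against 9.88, 11.15 and 9.42 in E2 2 h uteri (5.60 ± 0.68). Car2, a carbonic anhydrase, was at 14.63, 14.99 and 15.25 in E2 24 h uteri, against 9.65, 9.61 and 8.99 in E2 2 h uteri (5.54 ± 0.35), and Crabp1, which binds retinoic acid, at 11.81, 12.47 and 12.51 in E2 24 h uteri, against 6.81, 6.50 and 6.87 in E2 2 h uteri (5.54 ± 0.37). None of these 3 genes overlapped between times. Adgrg7, an adhesion receptor, rose by 5.40 ± 0.56, the adhesion molecule gene Ceacam1 by 4.98 ± 0.32 and the membrane mucin gene Muc20 by 4.93 ± 0.36. The histone genes H1f5 (6.22 ± 0.60) and Hist1h2aj (4.91 ± 0.55) rose as well, and the same uncertainty holds for histones.

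**Figure D2:**
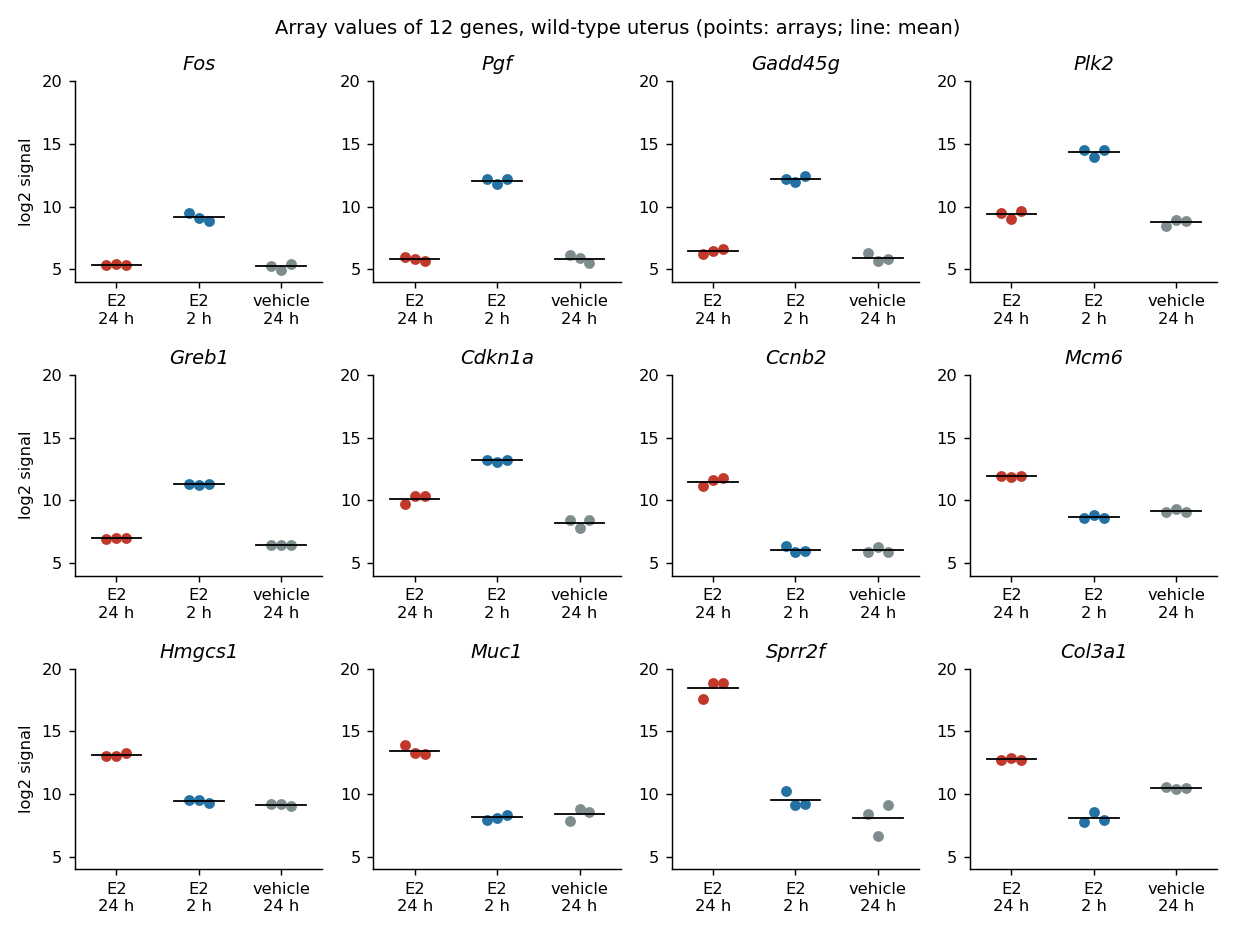
Log2 signal of 12 genes on each array of WT uteri at E2 24 h, E2 2 h and vehicle 24 h; points are arrays and lines are means of 3. Fos, Pgf, Gadd45g, Plk2, Greb1 and Cdkn1a are highest at E2 2 h, and the other 6 genes, Ccnb2, Mcm6, Hmgcs1, Muc1, Sprr2f and Col3a1, at E2 24 h.

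The genes of immediate early transcription factors are transcribed without prior new protein synthesis, and the factors switch on later genes. Of 27 measured, 22 fell and 0 rose at 24 h relative to 2 h, with a median difference of -1.12 beside -0.01 over all genes. Fos, a partner in the AP-1 dimer, was at 5.30, 5.38 and 5.35 in E2 24 h uteri, against 9.52, 9.09 and 8.88 in E2 2 h uteri (-3.82 ± 0.21, at least 10.6-fold lower). Its vehicle levels were 5.27, 4.95 and 5.45. The orphan nuclear receptor gene Nr4a1 was at 6.62, 6.44 and 6.64 in E2 24 h uteri, against 10.12, 10.34 and 9.66 in E2 2 h uteri (-3.47 ± 0.28).

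Ier2 fell by 2.79 ± 0.38, the AP-1 gene Fosl2 fell by 2.67 ± 0.26 and its partner Jun fell by 2.55 ± 0.30. At 24 h, 8 of the 27 were called above vehicle (16.8% of all genes were) and 1 below it, or 7 and 0 without vehicle replicate 1. At 2 h, 20 were called above vehicle (9.84% of all genes were), and 20 without that array. Myc, a driver of growth and ribosome production, was not called between the times, at 11.13, 11.29 and 11.08 in E2 24 h uteri, against 11.001, 11.16 and 10.88 in E2 2 h uteri (0.15 ± 0.27, adjusted p = 0.749), and its arrays overlapped. Its sign turned after quantile normalization. Myc levels in vehicle were lower, 10.31, 9.66 and 9.55.

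The feedback genes of mitogen-activated kinase signalling encode phosphatases and adaptors that damp growth factor signals. Of 16, 8 fell and 0 rose (median -0.63). Errfi1, an inhibitor of the epidermal growth factor receptor, was at 8.52, 8.44 and 8.73 in E2 24 h uteri, against 12.68, 12.33 and 12.04 in E2 2 h uteri (-3.79 ± 0.33). Dusp1, a phosphatase of kinases in this pathway, was at 7.29, 7.14 and 7.67 in E2 24 h uteri, against 10.46, 10.21 and 9.61 in E2 2 h uteri (-2.73 ± 0.21). Spry4 fell by 2.42 ± 0.65, Dusp5, whose serum response elements are shown above, fell by 1.46 ± 0.23, and Spry2 fell by 1.09 ± 0.31. Spry2 lost its call without E2 2 h replicate 1 or without E2 24 h replicate 3.

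Of 29 genes known from other work on early uterine estrogen action, 24 fell and 1 rose (median -2.70). The list was drawn up with earlier results of these data known, so its direction is a description. At 24 h, 12 of the 29 were still called above vehicle and 0 below, or 13 and 0 without vehicle replicate 1. The median level of the list was 8.16 in E2 24 h uteri, 12.19 in E2 2 h uteri and 7.76 in vehicle uteri. The only rise was in Odc1, the polyamine synthesis gene, by 1.66 ± 0.29; it was singled out after its value was seen.

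Among receptors and cofactors of steroids, 5 of 13 genes fell and 2 rose, beside 10.4% and 17.0% of all genes. Esr1 itself was at 11.89, 12.03 and 12.09 in E2 24 h uteri, against 11.44, 11.51 and 11.52 in E2 2 h uteri and missed the threshold (0.52 ± 0.19, adjusted p = 0.0506); it passed in 5 of the alternative settings. Pgr, the gene of the progesterone receptor and a known estrogen target, was at 14.71, 14.47 and 14.50 in E2 24 h uteri, against 16.37, 16.45 and 16.51 in E2 2 h uteri (-1.88 ± 0.33), and vehicle arrays were at 13.21, 14.26 and 13.83. Greb1, an estrogen-induced cofactor of the receptor, was at 6.92, 6.97 and 7.01 in E2 24 h uteri, against 11.29, 11.20 and 11.34 in E2 2 h uteri (-4.31 ± 0.14), with vehicle at 6.44, 6.45 and 6.44. The times did not overlap for Esr1, Pgr or Greb1, which was so for 47.8% of all genes.

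Nrip1, a corepressor of nuclear receptors, fell by 3.34 ± 0.13. Pgrmc1, a heme-binding membrane protein, rose by 0.78 ± 0.26 but lost its call in 5 of 15 alternative settings. Fkbp5, a chaperone of steroid receptors, fell by 0.62 ± 0.19 and lost its call without E2 2 h replicate 2. The count of 2 higher was 0 after quantile normalization or without E2 2 h replicate 1, and 1 without E2 2 h replicate 3, E2 24 h replicate 1 or E2 24 h replicate 3.

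Members of the IGF axis moved in both directions, 2 of 13 higher and 3 lower, beside 17.0% and 10.4% of all genes. With array weights 4 were called higher. Igf1 was at 11.76, 11.98 and 12.36 in E2 24 h uteri, against 13.03, 12.53 and 13.14 in E2 2 h uteri (-0.87 ± 0.28, adjusted p = 0.0239), and its call was lost without either of E2 2 h replicates 1 and 3 or E2 24 h replicates 1 and 2. Both times lay above its vehicle mean of 10.41. The receptor gene Igf1r was at 9.70, 9.97 and 9.65 in E2 24 h uteri, against 11.24, 11.36 and 11.20 in E2 2 h uteri (-1.49 ± 0.33), with vehicle at 10.99, 11.88 and 11.79. Among binding proteins that hold IGFs outside the cell, Igfbp5 was at 13.65, 14.05 and 14.13 in E2 24 h uteri, against 9.86, 9.56 and 9.51 in E2 2 h uteri (4.30 ± 0.55) and Igfbp3 at 10.10, 9.93 and 9.68 in E2 24 h uteri, against 12.56, 12.75 and 13.06 in E2 2 h uteri (-2.89 ± 0.49). Igfbp4 rose by 2.13 ± 0.31. Igfbp3 was thus lower and Igfbp5 and Igfbp4 higher at 24 h, with no overlap between times in any of the 3. The median of the list was 0.08 and -0.08 after quantile normalization.

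Of 11 genes of the EGF family, 3 rose and 5 fell, beside 17.0% and 10.4% of all genes. Hbegf, a ligand, was at 6.65, 6.29 and 6.66 in E2 24 h uteri, against 10.37, 10.03 and 9.32 in E2 2 h uteri (-3.37 ± 0.27), and Nrg1, a ligand of Erbb3 and Erbb4, fell by 0.69 ± 0.23 but lost its call in 4 settings. Among the receptors, Erbb3 rose by 1.75 ± 0.24 and Erbb2 by 1.33 ± 0.28, while Erbb4 fell by 1.14 ± 0.22 (at least 1.86-fold lower).

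Of 25 angiogenic and vasoactive genes, 5 rose and 10 fell, beside 17.0% and 10.4% of all genes. The count higher was 3 after quantile normalization and without E2 2 h replicate 1, E2 24 h replicate 1 or E2 24 h replicate 2. Vegfa, which drives vessel growth and permeability, was at 9.68, 9.61 and 9.45 in E2 24 h uteri, against 13.80, 13.42 and 13.45 in E2 2 h uteri (-3.98 ± 0.46), with vehicle at 8.87, 9.20 and 9.47. The vasodilator gene Adm fell by 2.84 ± 0.46 and the coreceptor gene Nrp2 fell by 1.97 ± 0.30. Aplnr, the receptor of apelin on vessels, was at 9.59, 8.88 and 9.57 in E2 24 h uteri, against 6.25, 6.40 and 6.19 in E2 2 h uteri (3.07 ± 0.28), and its vehicle levels of 7.50, 7.56 and 7.88 lay between the times.

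Genes of DNA replication and of mitosis were nearly all higher at 24 h. Of 30 genes of replication and the G1/S transition, 29 rose and 0 fell (median 1.63). Mcm6, a subunit of the replicative helicase, was at 11.92, 11.88 and 11.93 in E2 24 h uteri, against 8.59, 8.80 and 8.60 in E2 2 h uteri (3.25 ± 0.22), with vehicle at 9.07, 9.28 and 9.07. Mcm3, of the same complex, rose by 3.48 ± 0.22, and Rrm1, which makes deoxynucleotides, by 3.33 ± 0.27. E2f8, a late cell cycle repressor, rose by 2.96 ± 0.21 (at least 6.34-fold higher), and Uhrf1, which maintains DNA methylation, by 2.91 ± 0.18.

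Of 27 mitosis genes, 26 rose and 1 fell (median 3.01). Ccnb2, a mitotic cyclin, was at 11.14, 11.59 and 11.75 in E2 24 h uteri, against 6.36, 5.90 and 5.93 in E2 2 h uteri (5.43 ± 0.44, 43-fold higher). Ube2c, which feeds cyclins to the proteasome, was at 12.80, 14.29 and 13.44 in E2 24 h uteri, against 7.97, 7.82 and 8.21 in E2 2 h uteri (5.51 ± 0.53). Mki67, the proliferation antigen, was at 12.41, 13.12 and 12.89 in E2 24 h uteri, against 8.38, 7.71 and 8.21 in E2 2 h uteri (4.70 ± 0.59). Vehicle levels of Ccnb2 were 5.92, 6.26 and 5.87, close to those at 2 h. Kif11, a spindle motor, rose by 4.27 ± 0.39.

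The single fall was in Mad2l1, a spindle checkpoint gene that also stands in the list of early estrogen genes, at 10.95, 11.10 and 11.30 in E2 24 h uteri, against 15.60, 15.58 and 15.66 in E2 2 h uteri (-4.50 ± 0.27, 22.6-fold lower). Its vehicle levels were 8.12, 8.26 and 8.25, below both times. Mad2l1 thus stood highest at 2 h, where most of the list lay near vehicle: 26 of the 27 were called above vehicle at 24 h and 2 at 2 h, and both counts were the same without vehicle replicate 1.

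Of 15 G1 cyclins and inhibitors of cyclin-dependent kinases, 7 rose and 3 fell. Cdkn1a, the inhibitor p21, was at 9.69, 10.31 and 10.35 in E2 24 h uteri, against 13.22, 13.09 and 13.21 in E2 2 h uteri (-3.06 ± 0.50), with vehicle at 8.40, 7.83 and 8.45. The kinase gene Cdk4 rose by 1.47 ± 0.28 and the pocket protein genes Rbl1 by 1.96 ± 0.15 and Rb1 by 1.69 ± 0.36. Rb1 lost its call when all its probe sets were averaged, at 0.43. Cdkn1b, the inhibitor p27, rose by 0.98 ± 0.31 and lost its call after quantile normalization, without E2 2 h replicate 1 and without E2 24 h replicate 2.

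**Figure D3:**
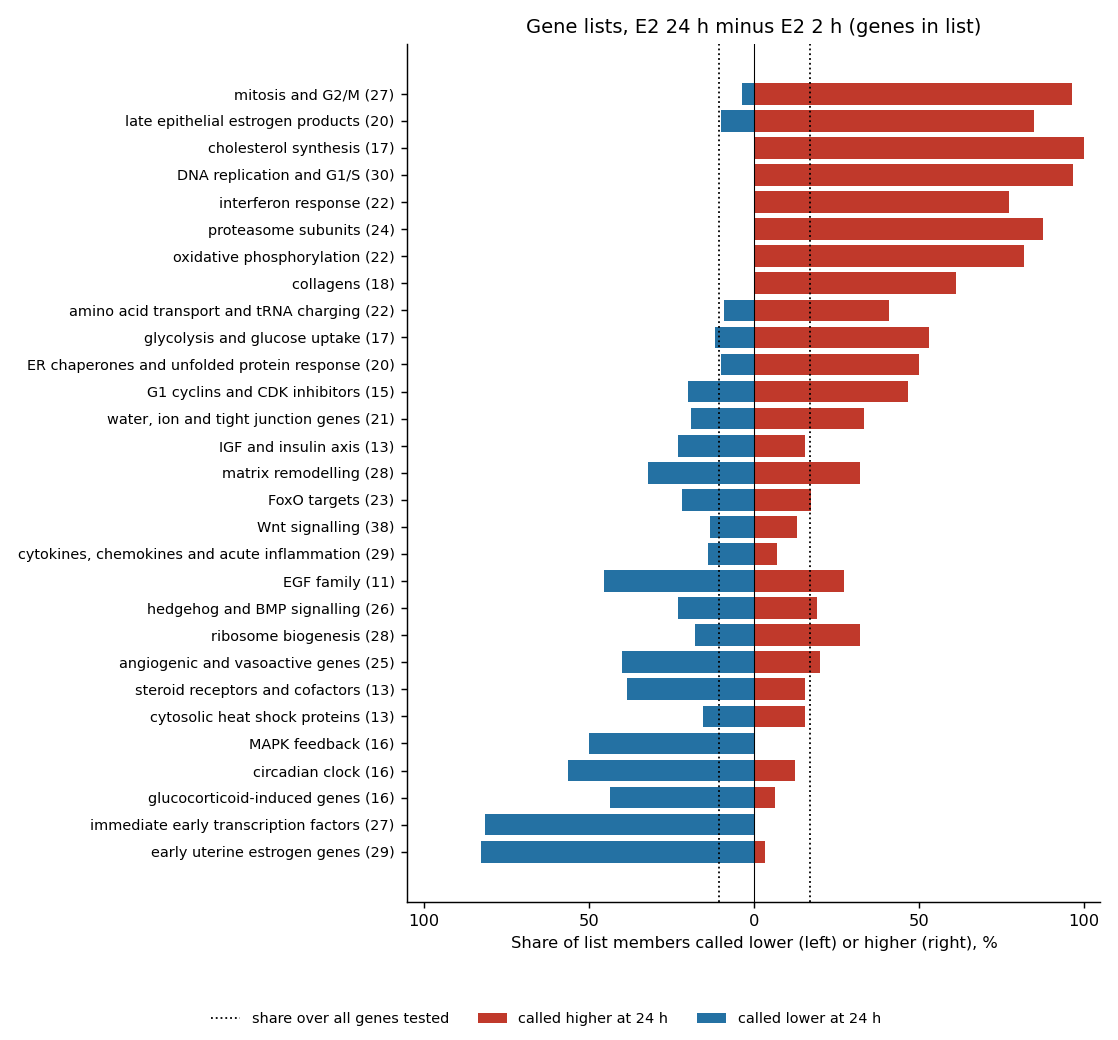
Share of the members of each of 29 gene lists called higher (right, red) or lower (left, blue) in E2 24 h uteri than in E2 2 h uteri, ordered by median difference, with list sizes in brackets and the shares over all genes as dotted lines. Mitosis, late epithelial products, cholesterol synthesis and replication lie toward the top and the early estrogen and immediate early genes at the bottom.

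Cholesterol synthesis runs from acetyl units through mevalonate and squalene. All 17 measured genes of the pathway rose (median 2.19), and all 17 were called above vehicle at 24 h, also without vehicle replicate 1. Hmgcs1, which makes the precursor of mevalonate, was at 13.02, 13.06 and 13.27 in E2 24 h uteri, against 9.50, 9.57 and 9.31 in E2 2 h uteri (3.66 ± 0.44), with vehicle at 9.22, 9.17 and 9.08. Fdps, which builds farnesyl units, was at 12.10, 12.29 and 12.44 in E2 24 h uteri, against 7.08, 7.22 and 7.19 in E2 2 h uteri (5.11 ± 0.36). Idi1, of the isoprene step before it, rose by 3.86 ± 0.43, the squalene epoxidase gene Sqle by 3.38 ± 0.40 and the lanosterol demethylase gene Cyp51 by 3.27 ± 0.38. The 24 h arrays of these genes lay close together and far above the 2 h arrays, which lay near vehicle.

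Genes of energy supply were also mostly higher. Of 22 genes of oxidative phosphorylation, 18 rose and 0 fell (median 0.99). Ndufa4, a respiratory chain subunit, was at 17.41, 17.48 and 17.67 in E2 24 h uteri, against 15.03, 15.37 and 14.94 in E2 2 h uteri (2.40 ± 0.35), and Cox5a, of cytochrome oxidase, at 14.56, 14.57 and 14.55 in E2 24 h uteri, against 12.52, 12.45 and 12.44 in E2 2 h uteri (2.09 ± 0.45). Uqcrc1 of complex III rose by 1.73 ± 0.29, Ndufa9 of complex I by 1.60 ± 0.34 and Cox5b by 1.52 ± 0.30. Glycolysis and glucose uptake were represented by 17 genes, of which 9 rose and 2 fell. The enzyme genes Pgk1 (3.24 ± 0.33), Tpi1 (2.71 ± 0.33), Pkm (1.69 ± 0.30) and Ldha (1.22 ± 0.23) rose, and Pfkfb3, which makes an activator of glycolysis, fell by 1.46 ± 0.32.

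Genes of protein synthesis differed by step. Of 28 ribosome biogenesis genes, 9 rose and 5 fell (median -0.16), while 25 were called above vehicle at 24 h and 23 at 2 h, or 24 and 21 without vehicle replicate 1. Dkc1, the pseudouridine synthase, was at 11.01, 11.14 and 10.88 in E2 24 h uteri, against 9.35, 9.41 and 9.35 in E2 2 h uteri (1.64 ± 0.12), with vehicle at 9.39, 9.59 and 9.49. Nhp2, of the same particle, rose by 1.26 ± 0.26 and Fbl, the methyltransferase fibrillarin, by 0.99 ± 0.22. Wdr43 fell by 0.97 ± 0.29 and Utp4 fell by 0.95 ± 0.28, both processome subunits, and both lost their call without E2 24 h replicate 1, Utp4 also without E2 2 h replicate 3. The count of 5 lower was 9 after quantile normalization, 9 when the fit held no other groups, 10 with array weights, 2 without E2 2 h replicate 3 and 1 without E2 24 h replicate 1.

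Of 22 genes of amino acid transport and tRNA charging, 9 rose and 2 fell. Slc7a5, the leucine transporter, was at 10.70, 11.37 and 11.38 in E2 24 h uteri, against 13.81, 13.58 and 14.17 in E2 2 h uteri (-2.70 ± 0.60), with vehicle at 8.49, 9.17 and 9.21. The serine synthesis gene Psat1 rose by 2.46 ± 0.47, the tRNA synthetase genes Gars by 1.54 ± 0.36 and Lars by 1.45 ± 0.28, and the glutamine transporter gene Slc1a5 by 1.44 ± 0.28. The count of 9 higher was 5 without E2 2 h replicate 1, without E2 2 h replicate 3, without E2 24 h replicate 2 or without E2 24 h replicate 3, and 14 when the fit held no other groups.

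Of 20 chaperones of the endoplasmic reticulum and genes of the unfolded protein response, 10 rose and 2 fell, and 5 were called higher after quantile normalization. P4hb, which also acts in collagen hydroxylation, was at 15.24, 15.26 and 15.26 in E2 24 h uteri, against 12.61, 12.70 and 12.60 in E2 2 h uteri (2.62 ± 0.26). Sdf2l1 (1.93 ± 0.28), the disulfide isomerase genes Pdia6 (1.74 ± 0.26) and Pdia3 (1.67 ± 0.26) and the calcium-binding chaperone gene Calr (1.50 ± 0.29) rose too. Of 24 proteasome subunits, 21 rose and 0 fell (median 1.03), and all 24 were called above vehicle at 24 h, with or without vehicle replicate 1. Psmb3 rose by 1.90 ± 0.37, Psmb1 by 1.62 ± 0.37, Psma5 by 1.52 ± 0.38, Psma2 by 1.27 ± 0.25 and Psmd14 by 1.24 ± 0.19.

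In a list of 13 heat shock proteins 2 were called higher, both chaperonin genes of mitochondria, and 2 lower, both cytosolic. Over all genes 17.0% were higher and 10.4% lower. After quantile normalization 0 of the 13 were called higher and 6 lower. The count higher was 1 without E2 2 h replicate 1 or 3 or E2 24 h replicate 1 or 2. Hsph1, a partner of Hsp70, was at 9.82, 9.99 and 9.93 in E2 24 h uteri, against 12.55, 12.18 and 12.09 in E2 2 h uteri (-2.36 ± 0.30), with vehicle at 8.28, 8.51 and 8.31. Chordc1, a partner of Hsp90, fell by 0.82 ± 0.18. The mitochondrial chaperonin genes Hspd1 (0.74 ± 0.24) and Hspe1 (0.72 ± 0.21) were called higher and lost the call in 5 and 1 settings.

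Of 20 late products of the estrogen-treated epithelium, 17 rose and 2 fell (median 2.81). Besides the Sprr genes, Clca1 and Car2, Muc1, the membrane mucin of the luminal surface, was at 13.91, 13.25 and 13.23 in E2 24 h uteri, against 7.98, 8.11 and 8.35 in E2 2 h uteri (5.32 ± 0.42). Ltf, the secreted iron-binding protein lactoferrin, was at 13.33, 13.90 and 13.76 in E2 24 h uteri, against 8.11, 9.93 and 8.71 in E2 2 h uteri (4.75 ± 1.40, adjusted p = 0.0123); its SE was large, and the call was lost without E2 2 h replicate 1. Lcn2, a secreted binder of bacterial siderophores, was at 10.79, 10.32 and 11.95 in E2 24 h uteri, against 7.80, 8.58 and 7.81 in E2 2 h uteri (2.96 ± 0.64). No 2 h array reached a 24 h array in these 3 genes.

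Of 21 genes of water, ion and tight junction transport, 7 rose and 4 fell. Cftr, the chloride channel, was at 9.07, 9.31 and 9.50 in E2 24 h uteri, against 5.94, 5.94 and 5.77 in E2 2 h uteri (3.41 ± 0.15, at least 10.1-fold higher). Cldn7 rose by 2.12 ± 0.28 and Cldn3 by 1.27 ± 0.35, both tight junction genes, and Cldn3 lost its call without E2 2 h replicate 3, where 4 of the 21 were called higher. The sodium channel gene Scnn1a was at 6.72, 6.50 and 6.50 in E2 24 h uteri, against 8.17, 8.20 and 8.27 in E2 2 h uteri (-1.64 ± 0.27) and the water channel gene Aqp5 at 6.32, 6.23 and 6.89 in E2 24 h uteri, against 7.87, 7.22 and 7.50 in E2 2 h uteri (-1.05 ± 0.23). Cftr was thus higher and Scnn1a and Aqp5 lower at 24 h, each with no overlap between times.

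Fibrillar collagens, made by stromal cells, were higher at 24 h. Of 18 collagens, 11 rose and 0 fell (median 0.78). Col3a1 was at 12.74, 12.87 and 12.74 in E2 24 h uteri, against 7.78, 8.55 and 7.92 in E2 2 h uteri (4.70 ± 0.30), with vehicle in between at 10.56, 10.41 and 10.51. Col1a1 was at 12.04, 12.46 and 12.59 in E2 24 h uteri, against 7.99, 8.19 and 8.04 in E2 2 h uteri (4.29 ± 0.22), with vehicle at 9.34, 8.78 and 8.96. Col1a2 rose by 4.27 ± 0.23, Col6a2 by 3.18 ± 0.24 and Col6a1 by 2.78 ± 0.23. In the 3 fibrillar genes the 2 h arrays lay below vehicle and the 24 h arrays above it. Of the 18, 12 were called above vehicle and 1 below it at 24 h, or 11 and 0 without vehicle replicate 1. At 2 h the list went both ways, with 3 called above vehicle and 4 below it (9.18% of all genes were below), also without that array.

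Other matrix genes were split, with 9 of 28 higher and 9 lower. Sparc, a collagen-binding protein, rose by 2.33 ± 0.30 and the proteoglycan gene Lum by 3.22 ± 0.63. The proteases Adamts1 (-2.59 ± 0.27) and Plau (-2.32 ± 0.25) fell along with Adamts4. The median was 0.04 and -0.08 after quantile normalization.

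Of 38 Wnt signalling genes, 5 rose and 5 fell, beside 17.0% and 10.4% of all genes. When the fit held no other groups, 8 were called higher. Rspo3, a stromal enhancer of Wnt signals, was at 13.40, 13.80 and 13.42 in E2 24 h uteri, against 10.36, 10.77 and 10.19 in E2 2 h uteri (3.10 ± 0.61), with vehicle at 14.57, 15.40 and 15.62, above both times. Axin2, a feedback target of the pathway, was at 7.79, 8.15 and 7.86 in E2 24 h uteri, against 11.01, 10.55 and 10.81 in E2 2 h uteri (-2.85 ± 0.19). The ligand gene Wnt5a rose by 1.85 ± 0.15, the ligand gene Wnt4 fell by 1.45 ± 0.17 and the secreted inhibitor gene Sfrp2 fell by 1.10 ± 0.22. At 24 h, 3 of the 38 were called above vehicle and 12 below it (13.3% of all genes were below), or 3 and 11 without vehicle replicate 1.

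Hedgehog ligand from the epithelium acts on stroma through Ptch1 and Nr2f2. Of 26 hedgehog and BMP genes, 5 rose and 6 fell, beside 17.0% and 10.4% of all genes. The count higher was 3 after quantile normalization or without E2 24 h replicate 2 or 3 or any 1 of the E2 2 h arrays. Ihh, the ligand, was at 6.04, 5.91 and 6.22 in E2 24 h uteri, against 7.20, 7.04 and 7.14 in E2 2 h uteri (-1.07 ± 0.22). Nr2f2, a stromal nuclear receptor, was at 11.24, 11.58 and 11.58 in E2 24 h uteri, against 8.89, 9.55 and 9.36 in E2 2 h uteri (2.20 ± 0.18), with vehicle at 11.45, 12.03 and 12.08. Ptch1 was at 10.17, 10.44 and 10.24 in E2 24 h uteri, against 8.65, 9.09 and 8.79 in E2 2 h uteri (1.44 ± 0.47), with vehicle at 11.29, 12.82 and 13.05, and lost its call in 5 settings. Ihh was lower and both genes downstream of it higher at 24 h. Inhbb, an activin subunit, fell by 2.12 ± 0.22, and Id1, a BMP target, fell by 1.11 ± 0.35 with its call lost without E2 2 h replicate 1, E2 2 h replicate 3 or E2 24 h replicate 2.

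Of 22 interferon response genes, 17 rose and 0 fell (median 1.38). Oas1a, an antiviral RNA sensor, was at 10.90, 10.28 and 10.22 in E2 24 h uteri, against 7.59, 7.56 and 8.07 in E2 2 h uteri (2.73 ± 0.36), with vehicle at 8.56, 8.14 and 8.61. Ifit3b was at 8.74, 8.89 and 7.62 in E2 24 h uteri, against 6.05, 6.33 and 5.68 in E2 2 h uteri (2.40 ± 0.42), with vehicle at 7.85, 8.35 and 8.54. Oas2 rose by 2.21 ± 0.41, Oasl2 by 2.15 ± 0.36 and Ifit1 by 1.67 ± 0.47. At 24 h, 8 of the 22 were called above vehicle (16.8% of all genes were), and 5 without vehicle replicate 1 (4535 of 30142 genes were). At 2 h, 1 was called above vehicle (9.84% of all genes were) and 8 below it (9.18% were). Without that array these counts were 0 and 7. The median level was 8.52 in E2 24 h uteri, 7.36 in E2 2 h uteri and 8.14 in vehicle uteri.

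Of 29 cytokines, chemokines and adhesion genes, 2 rose and 4 fell, beside 17.0% and 10.4% of all genes, and 11 lay at the floor at both times. Ccl11, the eosinophil chemokine eotaxin, was at 12.33, 11.50 and 11.11 in E2 24 h uteri, against 8.76, 8.96 and 8.96 in E2 2 h uteri (2.76 ± 0.55). Vcam1, the vascular adhesion molecule, rose by 2.04 ± 0.34. Cxcl16 fell by 1.29 ± 0.20, the cytokine gene Lif fell by 0.90 ± 0.20 (at least 1.69-fold lower) and Icam1 fell by 0.87 ± 0.25. When the fit held no other groups, 5 were called higher and 7 lower.

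Circadian clock genes oscillate over the day, and the labels used here give no clock time of collection. Of 16, 2 rose, or 1 without E2 2 h replicate 1, and 9 fell (median -0.81). Per2 was at 7.59, 7.65 and 7.56 in E2 24 h uteri, against 10.17, 9.96 and 9.94 in E2 2 h uteri (-2.43 ± 0.29), with vehicle at 7.99, 9.15 and 8.73. Cry2 fell by 2.43 ± 0.23, Npas2 fell by 1.84 ± 0.19 and Cry1 fell by 1.62 ± 0.17. Dbp, an output gene, was at 9.01, 9.40 and 9.18 in E2 24 h uteri, against 7.16, 7.70 and 7.48 in E2 2 h uteri (1.75 ± 0.24), with vehicle at 10.75, 10.64 and 10.07. Against vehicle, 1 of the 16 was called above and 10 below at 24 h, and 8 above and 6 below at 2 h, with and without vehicle replicate 1.

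Of 16 genes known as glucocorticoid targets, 1 rose and 7 fell, among them Pdk4, Errfi1, Cdkn1a and Dusp1 described above, while Lcn2 rose; with array weights 11 were called lower. Of 23 targets of FoxO factors, 4 rose and 5 fell, beside 17.0% and 10.4% of all genes. The median of the FoxO list was 0.03, or -0.09 after quantile normalization. The sestrin genes Sesn1 (2.34 ± 0.52) and Sesn3 (2.32 ± 0.44) and the coregulator gene Cited2 (1.71 ± 0.19) rose, and the repressor gene Bcl6 fell by 1.89 ± 0.36. Sesn3 levels were 12.92, 12.68 and 12.77 in E2 24 h uteri, 10.43, 10.72 and 10.26 in E2 2 h uteri and 13.49, 13.05 and 12.78 in vehicle uteri, so that the 2 h arrays lay lowest.

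Markers of the tissues of the uterus were read in the same way, beside 17.0% of all genes called higher and 10.4% called lower. Of 13 epithelial markers, 11 rose and 0 fell, and the mean of the list per array was 10.99 to 11.04 in E2 24 h uteri, against 8.83 to 9.42 in E2 2 h uteri and 8.52 to 8.80 in vehicle uteri. Epcam, the adhesion molecule that leads the list, was at 13.77, 13.47 and 13.72 in E2 24 h uteri, against 11.37, 11.29 and 10.94 in E2 2 h uteri. These rises stood beside those of the late epithelial products and of the cell cycle genes, and their part in them was not tested.

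Of 11 stromal markers, 9 rose and 1 fell, Pdgfrb, named after its value was seen (-0.75 ± 0.28). Their mean per array was 11.70 to 11.90 in E2 24 h uteri, against 9.92 to 10.02 in E2 2 h uteri and 10.88 to 11.57 in vehicle uteri. Col3a1, Lum and Nr2f2 stand in this list as well as in those above. The mean of these stromal markers lay lowest at 2 h, and the part of stroma in the collagen result was not tested.

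Smooth muscle markers were bright at both times, and Acta2 was at 18.15, 18.28 and 18.32 in E2 24 h uteri, against 17.54, 17.50 and 17.60 in E2 2 h uteri. It was not called (adjusted p = 0.306), though its times did not overlap, as in 47.8% of all genes. Of the 11, 1 rose and 0 fell. Of 10 endothelial markers, 2 rose and 0 fell, and Pecam1 was at 9.34, 9.07 and 9.34 in E2 24 h uteri, against 9.06, 9.55 and 9.07 in E2 2 h uteri. Their mean per array was 8.71 to 8.80 in E2 24 h uteri, against 8.72 to 8.77 in E2 2 h uteri.

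Markers of blood-borne cells were mostly not called. Of 10 macrophage markers 1 rose and 0 lay at the floor, with a mean per array of 8.33 to 8.66 in E2 24 h uteri, against 8.07 to 8.38 in E2 2 h uteri. Of 9 neutrophil markers 1 rose, with 5 at the floor at both times, and of 10 T and NK cell markers 4 fell, with 6 at the floor at both times. Eosinophil markers had no call among 6, and 5, Epx and Siglecf included, lay at the floor at both times. Of 8 mast cell markers 1 fell, and of 6 B and plasma cell markers 1 rose. Of 7 gland markers 1 rose and 4 lay at the floor at both times.

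Markers of neighbouring tissue were read to see what else the samples held. Of 6 adipocyte markers 0 were called, but their mean per array ran widely, 6.88 to 7.89 in E2 24 h uteri, against 7.70 to 10.06 in E2 2 h uteri. Pparg, also a fat cell gene, was at 6.48, 6.02 and 6.68 in E2 24 h uteri, against 10.93, 10.56 and 11.40 in E2 2 h uteri, high on all 3 arrays at 2 h; the adipocyte mean at 2 h was 7.70, 10.06 and 8.17 on the same arrays. Pdk4 was at 7.77, 8.09 and 8.64 in E2 24 h uteri, against 12.45, 12.28 and 12.45 in E2 2 h uteri. The part of fat tissue in the falls of Pparg and Pdk4 was not tested. Of 6 mesothelial markers 1 rose, Krt19, which the epithelial list shares, and 1 fell. Of 7 ovary markers 1 fell with 4 at the floor at both times, of 6 oviduct markers 1 rose and 1 fell with 3 at the floor, and of 2 erythroid and 5 nerve markers 0 were called.

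**Figure D4:**
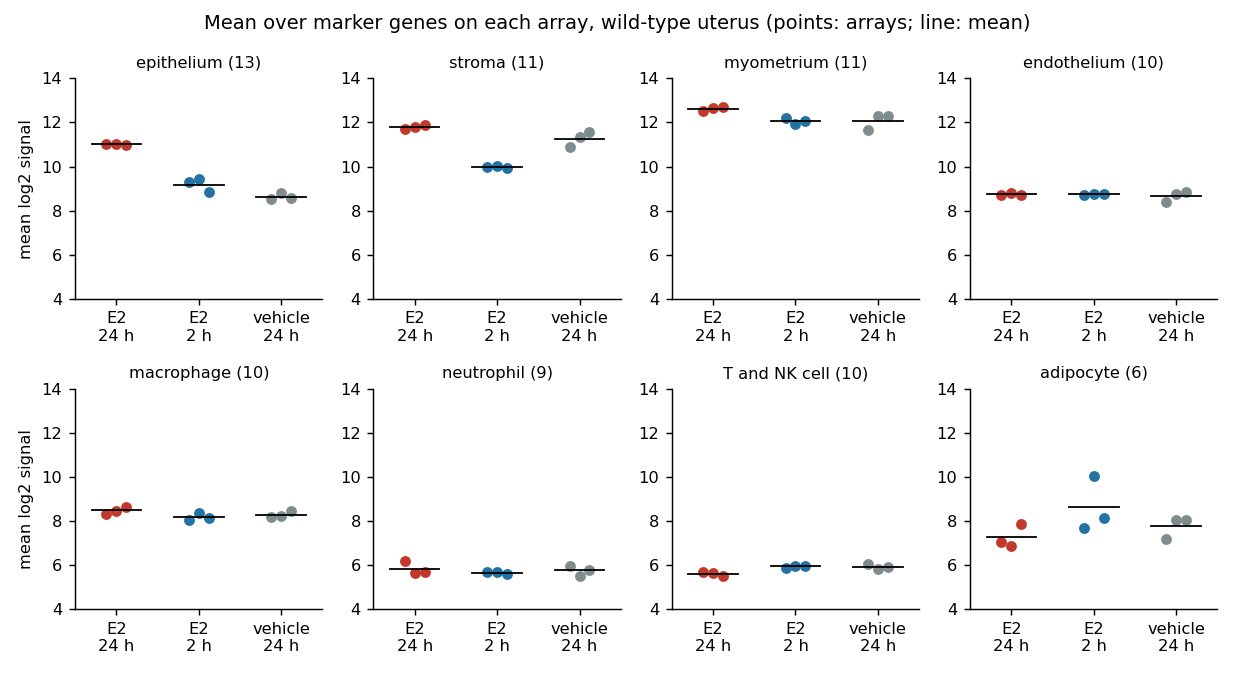
Mean log2 signal over the markers of 8 cell types on each WT array at E2 24 h, E2 2 h and vehicle 24 h, with the number of markers in brackets; points are arrays and lines are means of 3. Epithelial and stromal means are higher at E2 24 h than at E2 2 h, and the 3 adipocyte means at E2 2 h are spread between 7.70 and 10.06.

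In uteri of the Ex3aERKO genotype the same E2 dose was followed by far fewer 2-fold changes. Esr1 on these KO arrays averaged 10.07 at 24 h and 9.76 at 2 h, against 12.003 and 11.49 in WT; its probe set may lie outside the deleted exon, so this is a limited check of the genotype. Between 24 h and 2 h, 2839 genes were called in KO, 1832 higher and 1007 lower at 24 h. Of these, 117 were at least 2-fold higher and 315 at least 2-fold lower. These KO counts, and the KO medians below, are given only with KO E2 24 h replicate 2 included. The time change differed between WT and KO for 8842 genes (29.3% of those tested), 4446 with a more positive change in WT (14.8%) and 4396 with a more negative one (14.6%). Without KO E2 24 h replicate 2 the count was 6504, with 3688 more positive and 2816 more negative in WT. The share more positive in WT was 50.3% as deposited, 62.6% with arrays centred on their medians and 61.9% with dim genes removed.

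By list, 17 of 17 cholesterol genes, 26 of 27 mitosis genes and 27 of 30 replication genes differed in their time change between WT and KO, or 14, 26 and 26 genes without KO E2 24 h replicate 2. The KO medians of these lists were 0.10, 0.01 and 0.10, beside WT medians of 2.19, 3.01 and 1.63. Over all genes the median change was 0.15 in KO and -0.01 in WT. The floor of the KO arrays was 6.21, 6.57 and 6.09 at 24 h, against 5.96, 5.87 and 5.96 at 2 h. The KO median was -0.98 for smooth muscle markers and -0.86 for the endoplasmic reticulum list, but 0.27 for eosinophil markers. KO list medians thus cannot be read against a single baseline. Of 29 early estrogen genes 22 differed, and of 27 immediate early factors 18, each more negative in WT apart from 1 early gene; without that array 23 and 18 differed. Interferon genes differed in 18 of 22, or 17 without it, all more positive in WT, with medians of 1.38 in WT and -0.68 in KO. The glucocorticoid targets had medians of -0.86 in WT and -1.10 in KO. Of these 16 genes 6 differed, beside 29.3% of all genes, or 4 without that array, beside 6504 of 30142 genes.

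Among the single genes given here, only Greb1 had a called difference between WT and KO. Greb1 changed by -4.31 ± 0.14 in WT and 0.54 ± 0.14 in KO (difference -4.85 ± 0.19, adjusted p = 2.15e-14). Npas2 changed by -1.84 ± 0.19 in WT and -1.63 ± 0.19 in KO, a difference that was not called (-0.21 ± 0.27, adjusted p = 0.578). Pdk4 changed by -4.23 ± 0.70 in WT and -1.83 ± 0.70 in KO (-2.40 ± 0.99, adjusted p = 0.0706), again with no call for the difference. Cdkn1a, at -3.06 ± 0.50 in WT and -1.20 ± 0.50 in KO, lay next to the threshold (adjusted p = 0.0507).

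Under IGF1 in WT uteri, 4375 genes were called between 24 h and 2 h. The schedules differ, since IGF1 was given 3 times by 24 h and E2 once, so the difference in time change also holds the number of injections. It was called for 2960 genes (9.82%), 2067 with a more positive change under E2 (6.86%) and 893 with a more negative one (2.96%). With the fit limited to those 4 groups the count was 5267, and weighting the arrays gave 5930.

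All 17 cholesterol genes had a more positive change under E2, with medians of 2.19 under E2 and -0.21 under IGF1. Mitosis genes differed in 24 of 27 and replication genes in 19 of 30, with medians under IGF1 of 1.20 and 0.57. Ccnb2 changed by 5.43 ± 0.44 under E2 and 1.91 ± 0.44 under IGF1 (3.52 ± 0.63, adjusted p = 0.000538). Of 22 genes of amino acid transport and tRNA charging 17 differed, with medians of 0.64 under E2 and -1.40 under IGF1. Gars, for example, changed by 1.54 ± 0.36 under E2 and -1.51 ± 0.36 under IGF1 (adjusted p = 0.000308). Of 28 ribosome biogenesis genes 16 differed, all more positive under E2.

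Of 27 immediate early factors 6 differed, beside 9.82% of all genes, with medians of -1.12 under E2 and -1.06 under IGF1. Nr4a1 changed by -3.47 ± 0.28 under E2 and -3.29 ± 0.28 under IGF1 (-0.19 ± 0.39, adjusted p = 0.88). Of the 29 early uterine estrogen genes 16 differed, 15 with a more negative change under E2 and 1 with a more positive one, and the medians were -2.70 under E2 and -0.71 under IGF1. Among the members whose difference was not called, Ccn1 changed by -4.92 ± 0.40 under E2 and -4.24 ± 0.40 under IGF1 (-0.68 ± 0.57, adjusted p = 0.586). For Vegfa, of the same list, the changes were -3.98 ± 0.46 under E2 and -3.21 ± 0.46 under IGF1 (-0.77 ± 0.65, adjusted p = 0.587). For Lum they were 3.22 ± 0.63 under E2 and 3.01 ± 0.63 under IGF1 (0.21 ± 0.89, adjusted p = 0.946). A difference that misses the threshold does not show that the 2 treatments acted alike. Pgf, also of that list, changed by -6.25 ± 0.16 under E2 and -0.73 ± 0.16 under IGF1 (adjusted p = 5.92e-14).

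**Figure D5:**
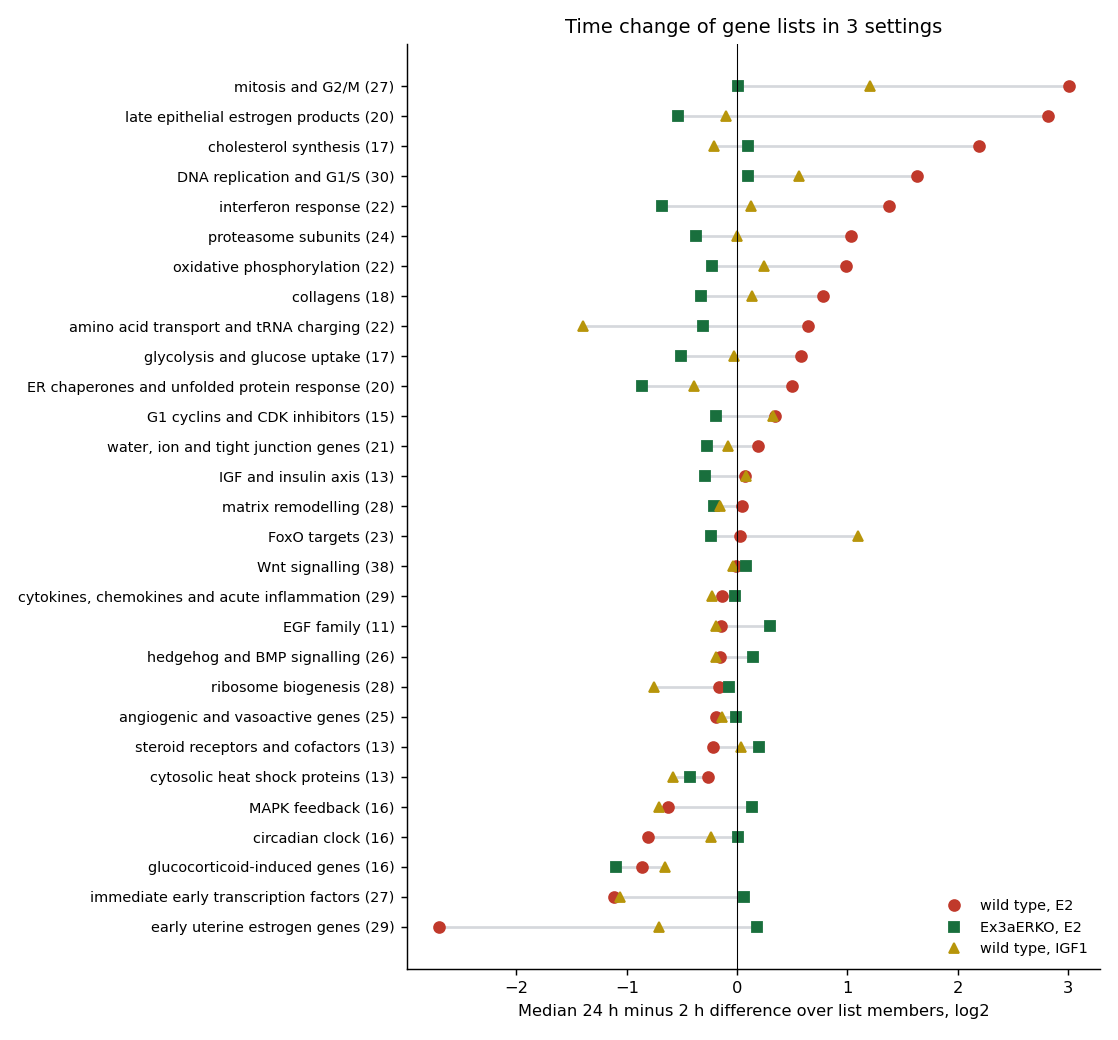
Median difference of 24 h minus 2 h (log2) over the members of 29 gene lists in WT uteri under E2 (circles), Ex3aERKO uteri under E2 (squares) and WT uteri under IGF1 (triangles), with list sizes in brackets. The mitosis median is 3.01 in WT under E2, 0.01 in KO under E2 and 1.20 in WT under IGF1.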

How the data were processed

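Total RNA of whole uteri was extracted with Trizol and an RNeasy clean-up and labelled with the Affymetrix WT Plus kit, per the labels' protocols. The deposited values are log2 signals of 72688 probe sets on 30 arrays; which software and normalization the authors used is not given in the sources used here. They were used as deposited. The 30604 probe sets that GEO's platform annotation pairs with 1 gene symbol were kept, with 827 symbols updated through RefSeq, and where a gene had more than 1 probe set (355 genes) the brightest over all arrays was taken, giving 30142 genes. Another 42084 probe sets, with several symbols or not listed, stayed out of the gene tests. Ccnd1 was not analysed here.

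A limma model (version 3.58.1, R 4.3.3) with a mean for each of the 10 groups over all 30 arrays (20 residual degrees of freedom, prior 3.66) gave the difference of 24 h minus 2 h of E2 in WT and its interactions with genotype and with treatment. Calls used Benjamini-Hochberg adjustment over all genes at 0.05. Simulated data with known changes were used to test the fit. The comparisons of 24 h and of 2 h with vehicle share arrays with the time comparison, so their values stand side by side only.

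Genes named were the 15 largest rises and falls of at least 2-fold without overlap of arrays, up to 5 called members of each of 29 lists by size of change, the 6 largest differences in each direction of each interaction, and a fixed set of 14 genes that includes Esr1, Pgr, Greb1, Igf1, Myc and Fos. Predicted genes, small RNAs, receptor and antibody segments and pseudogenes were left out. The first analysed marker is named for some of the 17 marker lists. The members and lists were chosen with earlier results of these data known. Of 678 planned list entries, 52 had no probe set.

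Promoter sequences came from RefSeq on GRCm38.p6. Alternatives were median centring, quantile normalization, removal of 11942 dim genes, the mean of all probe sets, a fit of only the compared groups, a trended robust prior, array weights, a replicate block and leaving out arrays.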

Additional observations from a re-analysis of the deposited data

Results flagged for a closer look

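The time change under E2 differed between WT and KO uteri for 8842 genes in the interaction of the limma fit. The 6 largest positive differences, WT change minus KO change in log2, were in Sprr2f (10.18 ± 2.19), Sprr2b (9.46 ± 1.75), Ltf (9.18 ± 1.98), Sprr1a (7.70 ± 1.58), H1f5 (7.13 ± 0.84) and Cfb (6.84 ± 1.34), a complement factor gene. Ltf changed by 4.75 ± 1.40 in WT and -4.43 ± 1.40 in KO, and Cfb by 4.04 ± 0.95 in WT and -2.80 ± 0.95 in KO. For both genes the estimates had opposite signs in WT and KO. The call is for the difference between the genotypes, not for the KO change alone. The 6 largest negative differences were in Ccn1 (-6.31 ± 0.57), Pgf (-6.27 ± 0.22), Hpgds (-6.10 ± 0.61), a prostaglandin D synthase gene, Gadd45g (-5.93 ± 0.30), Dennd2a (-5.65 ± 0.23) and Tiparp (-5.55 ± 0.27). Hpgds stood at 7.36, 6.99 and 7.45 in E2 24 h uteri, against 10.10, 10.57 and 10.35 in E2 2 h uteri, and changed by 3.03 ± 0.43 in KO, so its time change had opposite signs in WT and KO.

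The time change in WT differed between E2 and IGF1 for 2960 genes. The 6 largest positive differences, E2 change minus IGF1 change in log2, were in Sprr2f (8.86 ± 2.19), Sprr2b (8.86 ± 1.75), Sprr1a (7.56 ± 1.58), Adgrg7 (5.84 ± 0.79), Car2 (5.51 ± 0.49) and Cd248 (5.40 ± 0.77). Cd248, a receptor of stromal cells, stood at 9.73, 10.07 and 10.42 in E2 24 h uteri, against 7.74, 7.56 and 6.77 in E2 2 h uteri, and changed by -2.68 ± 0.54 under IGF1. The 6 largest negative differences were in Pdk4 (-5.82 ± 0.99), Pgf (-5.52 ± 0.22), Gadd45g (-5.06 ± 0.30), Dennd2a (-4.93 ± 0.23), Csrnp3 (-4.91 ± 0.26) and Irak3 (-4.87 ± 0.37). Csrnp3, a nuclear protein gene, stood at 6.49, 6.39 and 6.31 in E2 24 h uteri, against 10.004, 9.66 and 10.38 in E2 2 h uteri, and changed by 1.29 ± 0.18 under IGF1. Each of these 24 differences passed the threshold after adjustment over all genes.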

How the results depend on the processing

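The count of 8265 genes between 24 h and 2 h of E2 lay between 6569 and 7271 when 1 of the 6 arrays was left out, with 4169 to 4646 higher and 2387 to 2625 lower. With array weights 5107 genes were lower. Leaving out arrays gave 6504 to 9276 genes for WT minus KO, 2012 to 2835 for E2 minus IGF1, 6943 to 9335 for 24 h minus vehicle and 4303 to 5503 for 2 h minus vehicle. E2 minus IGF1 gave 5267 genes when the fit held no other groups, and 5930 under array weights, and 2 h minus vehicle gave 9266 with array weights; the cause was not tested. Without the 2 arrays of lowest weight, chosen after seeing the data, the main count was 9371. Myc turned to -0.0041 after quantile normalization. Centring arrays on their medians moved the share of higher calls to 69.6% for 24 h minus vehicle, against 55.8% as deposited, and to 66.3% for 2 h minus vehicle, against 51.7%. Of 159 named genes 157 were called, and 15 of them lost the call in at least 1 of 15 settings, all keeping their sign.

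With the replicate number as a block, 8128 genes were called between 24 h and 2 h, and 8744, 2932, 8919 and 5695 in the other comparisons in the order above. Samples of the same number did not deviate together (correlations of 0.02, -0.01 and -0.018), so the numbers were not taken as pairs. When the fit held no other groups, 6 endoplasmic reticulum genes, 4 glycolysis genes and 7 water and ion genes were called lower, against 2, 2 and 4, and with array weights 7 FoxO targets were called higher, against 4. At 3 arrays a group, differences near the spread between arrays were not detectable.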

Other observations

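Among 35331 transcript-cluster probe sets that were left out of the gene test because the annotation used does not pair them with a single symbol, 6060 were called between 24 h and 2 h of E2 in the WT uterus (17.2%). Of these, 1697 were higher at 24 h and 4363 lower, 931 and 2552 of them at least 2-fold. The split runs toward lower calls, unlike that of the named genes, of which 5116 were higher and 3149 lower. No difference between the 2 sets was tested.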
